A study of Homo sapiens with 46 samples.

Results

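Natural antisense genes are named after the gene they run against, and 501 of the 62756 genes in the count table carried such a name and were measured at a usable level in DLD-1 cells. A member was any gene whose symbol ends in -AS or in -AS and a number and whose mean over all 46 libraries was at least 1 CPM (a gene's counts scaled by the library's total). At any level the table held 1850 genes with such a name. Members were thus chosen by their mean level, so a member's level is a description here. The rule itself does not use differences between groups, but it was set with earlier results of these data known. SSBP3-AS1, INTS9-AS1 and PNN-AS1 lay just inside the threshold at 1.00, 1.01 and 1.01 CPM, and LACTB2-AS1, ZNF32-AS2 and DEPDC1-AS1 just outside it at 0.989, 0.984 and 0.981 CPM. All 501 members passed the low-count filter of the fit.

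DLD-1 is an established human colorectal adenocarcinoma line that grows attached. Libraries came from untagged parental cells and from 3 lines in which an auxin-inducible degron sits at the N-terminus of 1 endogenous lamin: LA/C-AID (lamin A/C, LAC in the plots), LB1-AID (lamin B1) and LB2-AID (lamin B2). All 4 lines received 1 mM auxin for 0, 16 or 96 h, which gives 12 groups, of which 10 had 4 replicates and LB1-AID at 0 h and LB2-AID at 96 h had 3. The parental cells were included to list genes that respond to auxin itself. Auxin was dissolved in DMSO, and the labels do not say whether the cells at 0 h received DMSO, nor whether each tagged line is 1 clone. Each replicate was 1 well of a culture plate, so p-values measure the spread between wells.

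Antisense genes are transcribed from the strand opposite to another gene, the partner, often from a shared promoter or from within the partner's introns. Some act on the partner in cis, by changing its transcription, splicing or stability, and others have roles that do not depend on it. Lamins form a meshwork under the inner nuclear membrane and hold chromatin at the nuclear edge.

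The start regions of 4 members are shown because they stand for the arrangements met below. SAP30L-AS1 and CCNT2-AS1 start head-to-head with their partners SAP30L and CCNT2, so that 1 stretch of DNA lies before both genes. VPS9D1-AS1 starts inside its partner and rose in parental cells. OSBPL10-AS1, also inside its partner, had the largest fall in parental cells at 16 h. Each sequence runs from 250 bases before the start to 50 after it, 5′ to 3′ on the gene's own strand, from RefSeq (GRCh38.p14). Capitals mark CCAAT, the CCAAT box, or its reverse complement ATTGG.
SAP30L-AS1: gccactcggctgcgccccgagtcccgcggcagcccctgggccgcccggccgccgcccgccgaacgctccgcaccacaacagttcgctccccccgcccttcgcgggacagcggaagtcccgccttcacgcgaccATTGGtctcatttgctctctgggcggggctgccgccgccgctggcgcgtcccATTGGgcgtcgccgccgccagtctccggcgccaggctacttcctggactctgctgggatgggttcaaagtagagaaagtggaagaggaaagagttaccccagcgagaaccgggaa
CCNT2-AS1: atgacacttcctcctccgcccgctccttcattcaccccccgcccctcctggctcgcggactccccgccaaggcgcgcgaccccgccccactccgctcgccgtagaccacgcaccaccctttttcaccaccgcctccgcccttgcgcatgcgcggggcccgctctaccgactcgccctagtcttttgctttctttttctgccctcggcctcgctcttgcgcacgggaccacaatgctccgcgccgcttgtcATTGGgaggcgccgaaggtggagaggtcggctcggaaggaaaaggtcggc
VPS9D1-AS1: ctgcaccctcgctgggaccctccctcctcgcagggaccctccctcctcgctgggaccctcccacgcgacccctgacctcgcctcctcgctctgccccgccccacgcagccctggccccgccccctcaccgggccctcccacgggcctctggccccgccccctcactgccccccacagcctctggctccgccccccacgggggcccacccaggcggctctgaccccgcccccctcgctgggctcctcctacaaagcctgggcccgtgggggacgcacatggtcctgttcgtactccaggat
OSBPL10-AS1: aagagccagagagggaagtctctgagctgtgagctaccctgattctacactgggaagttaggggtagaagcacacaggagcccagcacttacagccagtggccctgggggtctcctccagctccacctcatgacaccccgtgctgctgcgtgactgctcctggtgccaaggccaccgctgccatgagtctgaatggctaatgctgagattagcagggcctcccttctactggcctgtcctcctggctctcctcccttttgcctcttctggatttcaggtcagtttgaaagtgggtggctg
These windows are chr5:154445773-154446072 (minus strand), chr2:134918557-134918856 (minus), chr16:89711606-89711905 (plus) and chr3:31703963-31704262 (plus). The window of SAP30L-AS1 shares 274 bases with that of SAP30L, and the window of CCNT2-AS1 shares 285 bases with that of CCNT2. The pentamer occurred 2 times in the SAP30L-AS1 window and 1 time in the CCNT2-AS1 window, and these letters were not found in the windows of VPS9D1-AS1 and OSBPL10-AS1. In the CCNT2-AS1 window it begins at the RefSeq start and not before it. Over both strands it was present in 34.6% of all 35116 promoter windows in the table and in 29.7% of the 454 windows that belong to members. The CG dinucleotide occurred 35, 34, 21 and 3 times in the 4 windows in the order printed. RefSeq windows were found for 374 members. The starts in the count table lie 28, 106, 0 and 155 bases from the RefSeq starts, in the same order.

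Of the members, 491 had a partner, meaning that the symbol without its ending names another gene in the table, and 490 of these partners are protein-coding in GENCODE release 29. Exons of 353 members overlap exons of the partner on the other strand, 109 members have all their overlap in partner introns, and 23 do not overlap the partner at all. Head-to-head starts were found in 116 pairs. Another 10 members, among them HOXB-AS1, HOXB-AS2, HOXB-AS3 and HOXB-AS4 of the HOXB cluster, have a stem that names no gene, and FAM131B-AS2 lies on the same strand as FAM131B.

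Whether the counting used strand is not given in the sources used here, and this bears on every member. Of 391 genes lying wholly inside opposite-strand exons of genes with a mean of 10 CPM or more, 390 (99.7%) had 0 counts in all 46 libraries, against 29.5% of the 42104 genes whose exons overlap no other gene. Of 3316 genes inside the bodies of such opposite-strand genes but clear of any exon, 116 had 0 counts in all libraries. Counts of this kind are what counting without strand, with reads over shared exons dropped, would give. Under such counting, reads over exon overlaps are missing from members and partners alike, and reads from a partner's introns can enter a member's count. A member and the unspliced RNA of its partner therefore cannot be told apart here, although the library kit itself keeps strand.

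Most members were present at low levels. The median over members was 2.56 CPM, 199 had under 2 CPM, and 55 had 10 CPM or more. AFAP1-AS1, a long noncoding RNA on chr4:7754077-7778928 that is abundant in many carcinomas, reached a mean of 504 CPM and made up 15.6% of all counts of the members. OIP5-AS1, also called Cyrano, followed with 233 CPM and FGD5-AS1 with 156 CPM. Per kilobase of exon, 70 members lay above their partner and 421 at or below it. Full exon length was used, without correction for reads over shared exons or from partner introns, so these levels can be too low or too high. AFAP1-AS1 had 41.3 CPM per kilobase against 2.00 for AFAP1, which encodes an actin filament-associated protein.

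Library totals ran from 479446 to 37309421 counts, and 6 libraries had under 5000000, of which LB2-AID 16 h replicate 3 was the least deep. In that library a gene with no counts could still have a level of up to 6.26 CPM (3 counts). Epithelial markers EPCAM, CDH1, KRT8, KRT18 and CDX2 were present in every library, VIL1 (mean 1.44 CPM), CEACAM5 (1.20) and LGALS4 (0.689) were near 0, COL1A2 had 0 counts in all 46 libraries, and PTPRC, CD3E, PECAM1, VIM and ALB stayed under 1 CPM on average, beside COL1A1 at 1.47. A measure of intronic signal was made from 3223 genes that are no members, lie in the introns of opposite-strand genes and have a mean under 10 CPM. Their summed level ran from 2235 to 2875 CPM in the parental libraries at 0 h, from 1084 to 1436 at 16 h and from 1088 to 1549 at 96 h, so that the 0 h libraries did not overlap the treated ones. In LA/C-AID it was 1299 to 1588 CPM at 0 h, 883.2 to 1364 at 16 h and 1521 to 2076 at 96 h, in LB1-AID 1683 to 1892, 1159 to 1354 and 1933 to 3274 at 0, 16 and 96 h, and in LB2-AID 1361 to 2303, 1041 to 1683 and 2012 to 2542. These genes are themselves antisense to the gene around them, as the intronic members are. Their sum can hold their own transcripts as well as intron reads, and which of these it measures was not tested. This measure moved with the groups, and counts of members from fits with it as a covariate are given below. Such a fit can also remove changes that members share with other antisense genes.

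**Figure D1:**
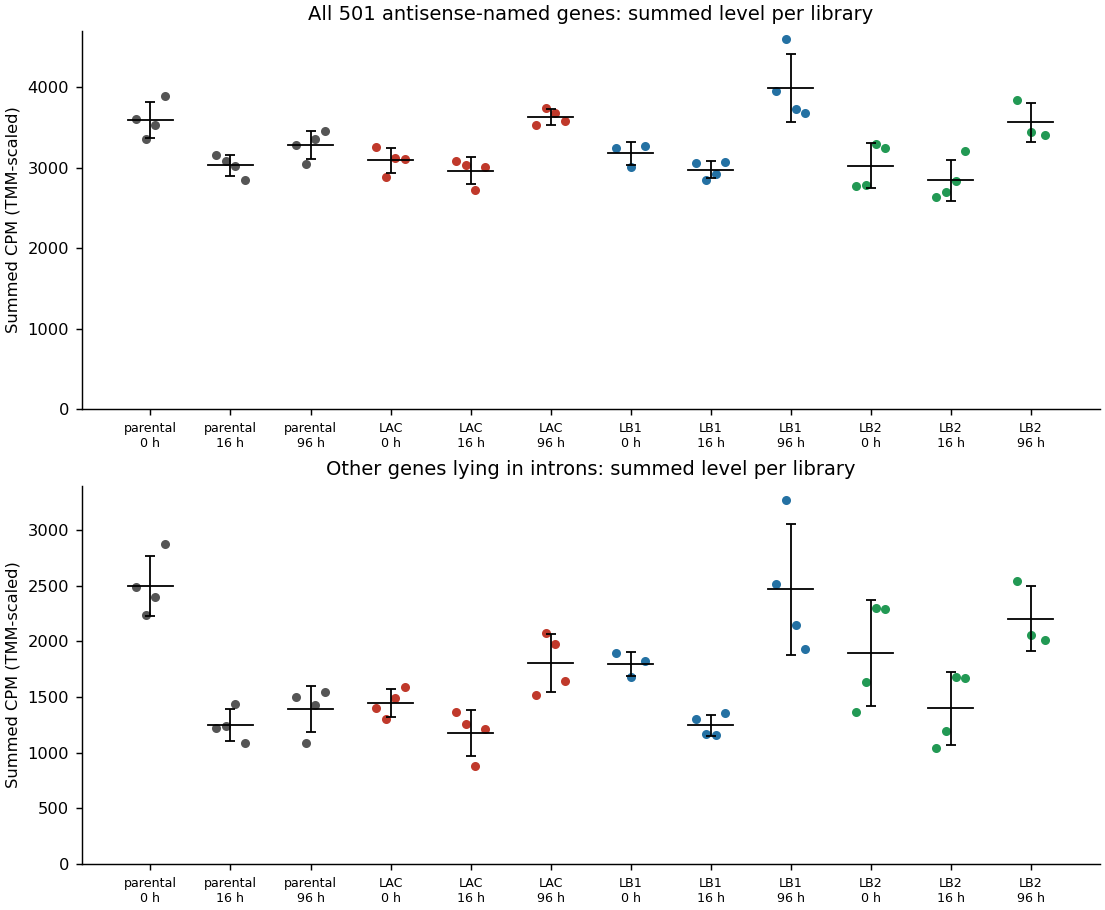
Summed level per library of the 501 members (upper panel) and of 3223 other genes lying in introns (lower panel), by line and hours of auxin. The sums are CPM of the library's total, and the TMM scaling named on the axes was not applied to them. Points are libraries, the bar is the mean and the whiskers are 1 SD; in parental cells the lower sum falls from 2235 to 2875 CPM at 0 h to 1084 to 1436 CPM at 16 h.

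Auxin in parental cells went with lower antisense counts. At 16 h, 56 members fell and 2 rose at an adjusted p under 0.05 (edgeR's quasi-likelihood test, Benjamini-Hochberg over 21484 genes). Of all genes tested, 4.78% fell and 4.23% rose, together 9.01%, against 11.6% of members called. Here and below the background also holds genes under 1 CPM, where no member lies, since only 15536 genes in the table reach 1 CPM. The shares of members and of all genes are therefore not matched in level. The median log2 fold change was -0.38 over members and -0.04 over all genes. At 96 h, 31 members fell and 4 rose (background 3.84% lower, 3.94% higher and 7.78% in all), with medians of -0.29 and -0.03. Long intergenic noncoding RNAs (symbols starting with LINC, 196 at 1 CPM or more) had 19 lower and 2 higher at 16 h and a median of -0.19. The partners did not share this direction, with 47 of 470 higher and 18 lower at 16 h and a median of 0.09. Of 21 genes of RNA decay, such as subunits of the RNA exosome, none was called in parental cells at 16 h and 1 was higher at 96 h, while 3 and 6 had an unadjusted p under 0.05 and DESeq2 called 1 and 2. In LA/C-AID 2 were higher and 4 lower at 96 h, where 15.4% of all genes were called, and at 0 h against parental cells 5 were higher and 2 lower, where 15.8% were called. In bulk RNA a level in fewer cells and less RNA per cell cannot be told apart. In all, 26 members fell and 1 rose at both times. These 2 comparisons share the 0 h libraries.

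Lower counts were found in both classes of overlap and in members that do not overlap the partner. Members whose exons touch only partner introns had 19 lower and 0 higher of 109 at 16 h, with a median log2 fold change of -0.67, and 44 of them had an unadjusted p under 0.05. Members whose exons overlap partner exons had 32 lower and 2 higher of 353, with a median of -0.27. The 23 members without overlap had 1 lower and 0 higher, with a median of -0.37 and 19 log2 fold changes below 0. Differences between these classes of members were not tested. Leaving out parental 0 h replicate 1 left 32 members called at 16 h. With the log2 intronic measure as a covariate, chosen after seeing the data, no member was called at 16 h (edgeR, DESeq2 was not run with it) and 2 were called at 96 h, neither among the 35, with a member median of 0.04 at 16 h. Calls over all genes also dropped in that fit, to 0.824% at 16 h and 2.5% at 96 h. The measure and the parental groups cannot be told apart, because their libraries do not overlap.

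**Figure D2:**
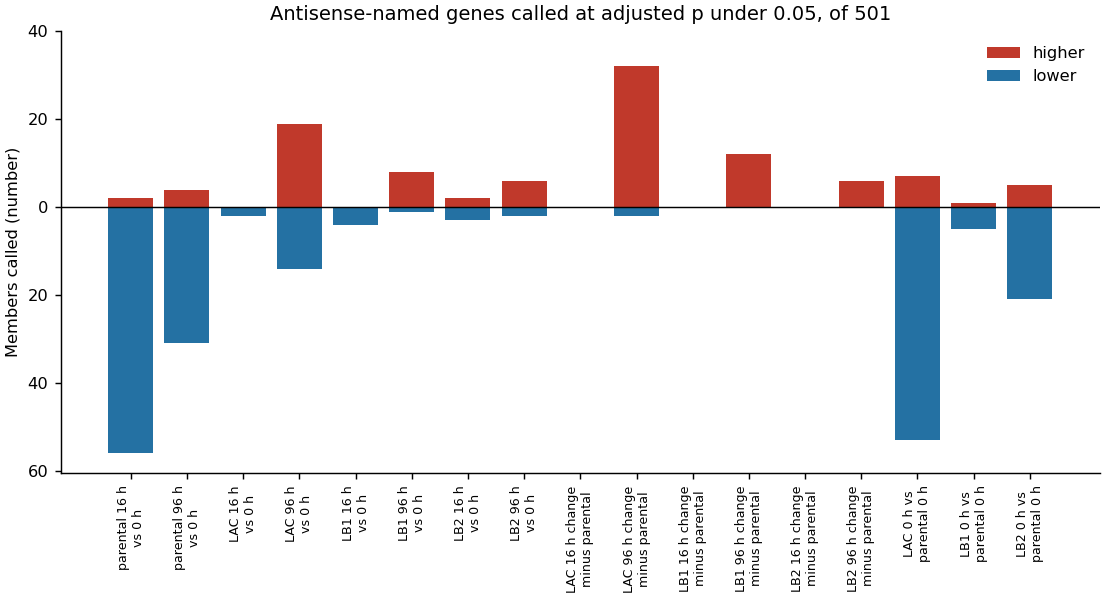
Number of the 501 members called higher (up) or lower (down) at an adjusted p under 0.05 in each of 17 comparisons. In parental cells at 16 h, 56 were lower and 2 higher, and no member was called in the 3 differences from the parental change at 16 h.

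AFAP1-AS1 was among the members that rose. Its 4 parental libraries had 273, 407, 296 and 278 CPM at 0 h, 609, 543, 544 and 540 at 16 h and 630, 580, 659 and 638 at 96 h. All treated libraries lay above all untreated ones. The log2 fold change was 0.83 ± 0.17 (SE) at 16 h (adjusted p = 0.0016, edgeR) and 1.00 ± 0.17 at 96 h (adjusted p = 0.000118). AFAP1 had -0.44 ± 0.15 (adjusted p = 0.0533) and -0.30 ± 0.15 (adjusted p = 0.204). With the intronic measure as a covariate the AFAP1-AS1 values were 0.37 (adjusted p = 0.588) and 0.61 (adjusted p = 0.0983).

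AFAP1-AS1 also rose in LB2-AID at both times. The 4 libraries at 0 h had 262, 323, 270 and 268 CPM, those at 16 h 597, 491, 200 and 434, and the 3 at 96 h 483, 573 and 615. The lowest 16 h value is from the least deep library. The log2 fold changes were 0.65 ± 0.17 (adjusted p = 0.0358) and 0.99 ± 0.18 (adjusted p = 0.000468), and the second passed under every alternative run. The first was lost in 10 of 17, among them RLE scaling, library size only, and 0 h replicates 1, 3 and 4 and 16 h replicates 1, 2 and 4 left out in turn (highest adjusted p 0.747). In LA/C-AID at 0 h AFAP1-AS1 was already high, at 378, 683, 677 and 687 CPM, above parental 0 h by 0.95 ± 0.17 on the log2 scale (adjusted p = 0.000103). There the libraries had 661, 777, 777 and 713 CPM at 16 h and 906, 699, 676 and 825 at 96 h, and the change from 0 h was not called.

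VPS9D1-AS1, also known as MYU, rose in parental cells at 96 h. Its libraries had 24.0, 20.6, 24.9 and 23.2 CPM at 0 h and 29.5, 46.5, 44.2 and 40.6 at 96 h. The groups did not overlap, and the log2 fold change was 0.79 ± 0.21 (adjusted p = 0.0127). VPS9D1, which encodes a protein with a VPS9 domain, had 0.19 ± 0.23 (adjusted p = 0.658). In LA/C-AID at 0 h VPS9D1-AS1 had 87.1, 37.6, 48.1 and 42.8 CPM, 1.18 ± 0.21 above parental cells (adjusted p = 9.25e-05). CCNT2-AS1, head-to-head with the cyclin T2 gene, went from 2.56, 1.57, 1.61 and 1.93 CPM to 3.51, 3.09, 4.28 and 5.42 at 96 h, a log2 fold change of 1.08 ± 0.31 (adjusted p = 0.0242), while CCNT2 had -0.04 ± 0.14 (adjusted p = 0.893). TMEM147-AS1 was the other member to rise at 96 h, and NINJ2-AS1 (0.84 ± 0.25, adjusted p = 0.025) was the other at 16 h.

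**Figure D3:**
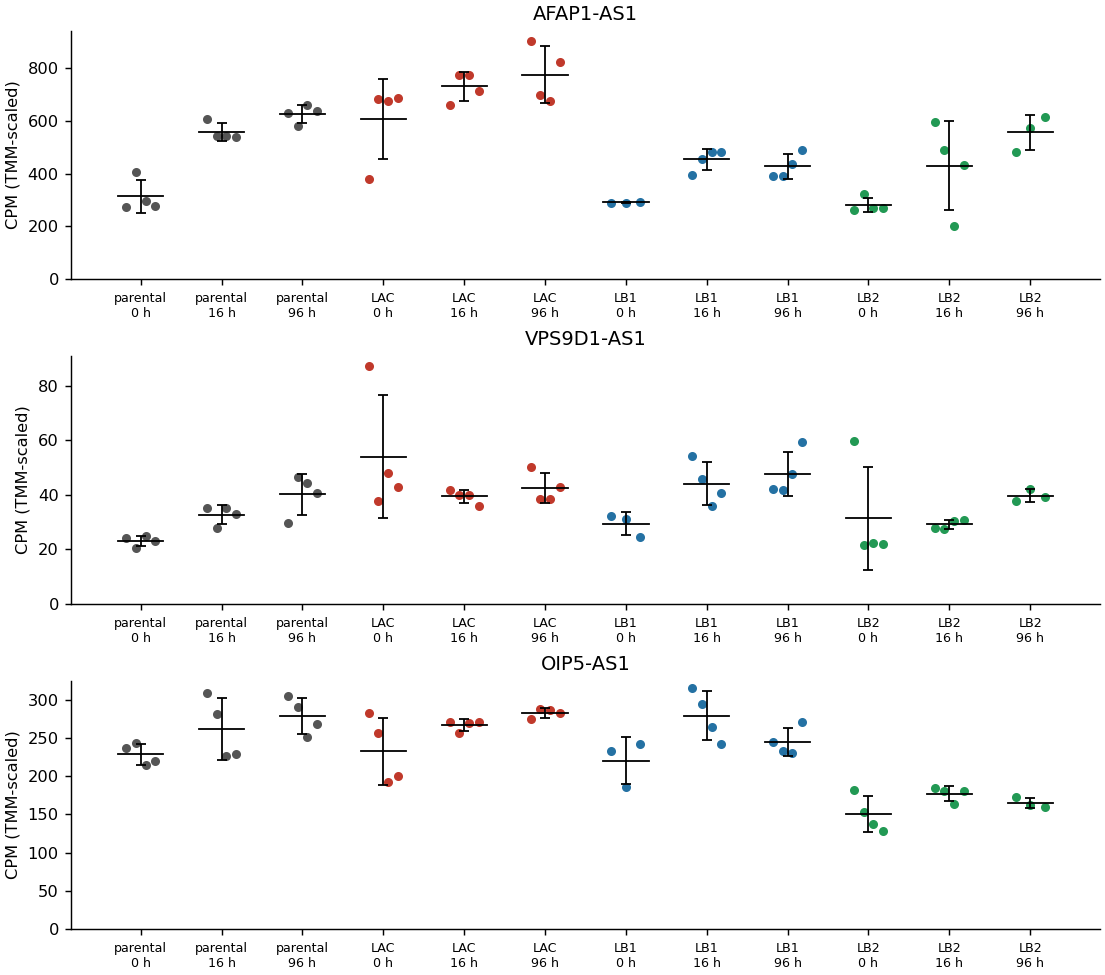
Level of AFAP1-AS1, VPS9D1-AS1 and OIP5-AS1 in each library (TMM-scaled CPM), by line and hours of auxin. Points are libraries, the bar is the mean and the whiskers are 1 SD; the 3 LB2-AID groups of OIP5-AS1 have the lowest means of the 12, and AFAP1-AS1 is above 375 CPM in all LA/C-AID libraries.

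Several members that fell lie inside the partner gene. HMGA2-AS1, inside the gene of the chromatin protein HMGA2, had 44.8, 44.7, 52.0 and 51.7 CPM in parental cells at 0 h, 14.2, 16.1, 21.9 and 9.42 at 16 h and 23.7, 11.4, 15.5 and 18.8 at 96 h. No treated library reached the lowest untreated one. The log2 fold changes were -1.65 ± 0.23 (adjusted p = 5.82e-06) and -1.46 ± 0.22 (adjusted p = 1.88e-05), beside -0.40 ± 0.13 (adjusted p = 0.0485) and -0.30 ± 0.13 (adjusted p = 0.161) for HMGA2. SAMD4A-AS1, wholly in introns of the RNA-binding protein gene SAMD4A, went from 7.19, 8.34, 6.10 and 11.1 CPM to 1.37, 2.38, 2.78 and 0.736 at 16 h and 1.96, 1.4, 0.713 and 1.93 at 96 h. Its log2 fold changes were -2.10 ± 0.34 (adjusted p = 8e-05) and -2.36 ± 0.35 (adjusted p = 1.27e-05), and SAMD4A fell too, by 0.96 ± 0.13 and 1.11 ± 0.13.

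IGF2BP2-AS1, in introns of the mRNA-binding protein gene IGF2BP2, fell by 1.64 ± 0.38 on the log2 scale at 16 h (adjusted p = 0.00509) and by 2.49 ± 0.42 at 96 h (adjusted p = 8.02e-05). IGF2BP2 had -0.13 ± 0.12 and -0.33 ± 0.12, neither called. OSBPL10-AS1 fell by 2.91 ± 0.59 at 16 h (adjusted p = 0.00129), from 0.975, 1.73, 1.97 and 1.45 CPM to 0.182, 0.274, 0.154 and 0. At 96 h it had 1.63, 1.3, 0.713 and 0.276 CPM. It also fell in LB1-AID at 16 h, from 2.38, 3.32 and 1.93 CPM to 0.158, 0.194, 0.280 and 0.897, by 2.31 ± 0.53 (adjusted p = 0.0153). OSBPL10, an oxysterol-binding protein gene, had -0.13 ± 0.13 and -0.25 ± 0.14 in these comparisons, not called. PRDX6-AS1 fell at both times in parental cells (-1.22 ± 0.21 and -1.09 ± 0.21) and in LA/C-AID (-0.94 ± 0.20, adjusted p = 0.00984, and -0.58 ± 0.20, adjusted p = 0.0401), while PRDX6, a peroxidase gene, was not called in any of the 4. The 96 h call of PRDX6-AS1 in LA/C-AID was lost in 12 of 17 alternatives, among them DESeq2 and each single library left out except 0 h replicate 2. HOXB-AS2, in the HOXB cluster, had 21.6, 16.7, 22.6 and 28.0 CPM at 0 h in parental cells and 7.19, 8.87, 12.4 and 8.83 at 16 h, a fall of 1.25 ± 0.24 (adjusted p = 0.000776).

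Member and partner were both called in 10 of 479 pairs in parental cells at 16 h, 6 in the same direction and 4 in opposite directions. All 4 opposite pairs had a lower member and a higher partner. SAP30L-AS1 runs away from SAP30L from the shared start region printed above, its start 147 bases from that of SAP30L. SAP30L encodes a subunit of a histone deacetylase complex. SAP30L-AS1 had 10.5, 9.82, 10.2 and 15.9 CPM at 0 h, 4.73, 4.76, 2.16 and 3.38 at 16 h and 8.34, 7.88, 9.45 and 8.91 at 96 h. The 16 h libraries lay below all others. Its log2 fold change was -1.53 ± 0.24 at 16 h (adjusted p = 7.61e-05), against 0.59 ± 0.16 for SAP30L (adjusted p = 0.0168). The other end of SAP30L-AS1 overlaps GALNT10, so its count can also hold reads from that gene.

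SEMA5A-AS1 lies in introns of SEMA5A, which encodes an axon guidance semaphorin. It had 4.63, 6.52, 5.56 and 7.01 CPM in parental cells at 0 h, 0.910, 1.81, 1.54 and 1.18 at 16 h and 2.62, 0.997, 1.96 and 1.65 at 96 h, with no overlap between untreated and treated libraries. The log2 fold changes were -2.06 ± 0.36 (adjusted p = 0.000271) and -1.70 ± 0.36 (adjusted p = 0.0017), while SEMA5A had 0.44 ± 0.13 (adjusted p = 0.0279) and 0.23 ± 0.13 (adjusted p = 0.283). The other opposite pairs were ROR1-AS1 with ROR1, a receptor gene (-1.43 ± 0.37 against 0.52 ± 0.15), and CYP2U1-AS1 with CYP2U1, a cytochrome P450 gene (-1.31 ± 0.34 against 0.86 ± 0.27). With the intronic measure as a covariate SAP30L-AS1 had -1.0 (adjusted p = 0.17) and SEMA5A-AS1 -0.93 (adjusted p = 0.533) at 16 h.

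**Figure D4:**
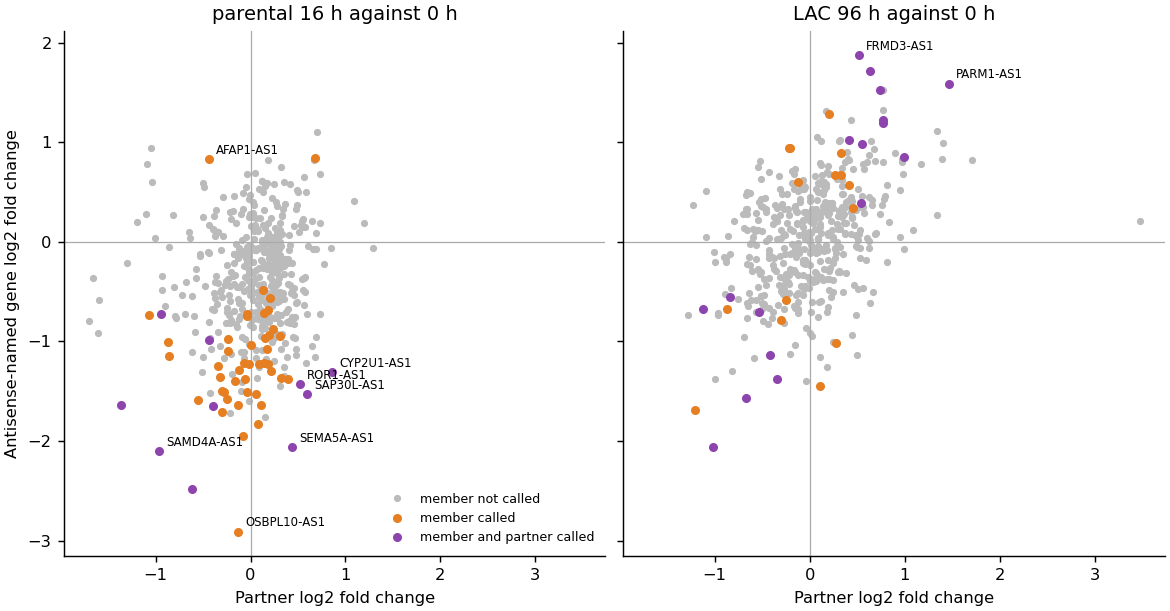
Log2 fold change of each member (vertical) against that of its partner (horizontal) for 479 pairs, in parental cells at 16 h (left) and LA/C-AID cells at 96 h (right), both against 0 h. At left, the 4 purple points at lower right are pairs called in opposite directions, and at right all 17 pairs with both genes called lie in the same direction.

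Within the tagged lines fewer members were called at 16 h than in parental cells. LA/C-AID had 0 higher and 2 lower (background 1.34% and 0.447%, 1.78% in all), LB1-AID 0 higher and 4 lower (0.987% and 0.517%, 1.5% in all), and LB2-AID 2 higher and 3 lower (1.43% and 0.377%, 1.81% in all). The medians were -0.14, -0.24 and -0.23. Fitted with the intronic covariate, 2, 0 and 0 members were called, beside 3.55%, 0.209% and 1.12% of all genes. The difference of each change from the parental one was called for no member at 16 h in any line (background in LA/C-AID 0.0745% higher and 0.0419% lower, 0.116% in all, in LB1-AID 0.0186% and 0.00931%, 0.0279% in all, and in LB2-AID 0.00465%, all higher). At an unadjusted p under 0.05 there were 61, 32 and 38 members, and DESeq2 called 7, 0 and 0, beside 0.628%, 0.112% and 0.00931% of all genes. These counts are small and moved with single libraries: LA/C-AID gave 21 without its 0 h replicate 2, 0 without 16 h replicate 4, and 1 without 0 h replicate 1, 3 or 4 or 16 h replicate 3. LB1-AID gave 8 without 16 h replicate 4, 2 without 16 h replicate 3, 1 without 0 h replicate 2 or 3, and 0 without 0 h replicate 1 or 16 h replicate 1 or 2. LB2-AID gave 13 without the least deep library, 12 without 0 h replicate 2, and 0 without 0 h replicate 3 or 4 or 16 h replicate 1 or 2. The LA/C-AID difference gave 1 or 2 in 5 of 16 such fits.

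At 96 h LA/C-AID had 19 members higher and 14 lower, 6.59% of members against 15.4% of all genes (6.74% higher, 8.64% lower). With library size as the only scaling the split was 40 higher and 12 lower, where the median of all genes moved by 0.12. Member changes went with GC content (Spearman -0.43 over 499 members, against 0.09 in parental cells at 96 h). The correlation was -0.37 for the difference from the parental change and 0.32 at 0 h against parental cells. Removing GC and length trends gave a split of 22 higher and 11 lower, 23 of them among the 33, beside 13.1% of all genes. The intronic covariate gave a split of 8 higher and 18 lower, 17 of them among the 33, with a median of -0.07 and 11.4% of all genes called. The count was 17 without 0 h replicate 1, 20 without 96 h replicate 2 and 19 without 96 h replicate 3. Both genes of the pair were called in 17 pairs and moved the same way in all 17. PARM1-AS1 and PARM1, which encodes a mucin-like membrane protein, rose by 1.59 ± 0.41 (adjusted p = 0.00594) and 1.47 ± 0.16. PARM1-AS1 had 0, 1.52, 0.953 and 2.79 CPM at 0 h and 3.97, 4.25, 4.72 and 6.16 at 96 h. FRMD3-AS1, which lies beyond the end of FRMD3, rose by 1.88 ± 0.54 (adjusted p = 0.0123) from 0, 0.444, 0.159 and 0.151 CPM to 1.31, 0.671, 0.880 and 1.17, while FRMD3 rose by 0.52 ± 0.14 (adjusted p = 0.00946). The rise of FRMD3-AS1 began from 0, 12, 1 and 2 counts at 0 h. There both genes were called below parental cells, with log2 differences of -2.48 for FRMD3-AS1 and -0.86 for FRMD3. FAM131B-AS2 fell by 1.69 ± 0.35 (adjusted p = 0.000587), from 21.4, 5.58, 8.89 and 4.53 CPM to 3.18, 2.40, 2.27 and 3.38. The first of its 0 h libraries, of 3318819 counts, stands above the other 3. HOXA10-AS, beside the developmental regulator HOXA10, fell at both times (-1.69 ± 0.42, adjusted p = 0.026, and -1.45 ± 0.42, adjusted p = 0.013), and its 17.2 CPM in that same library stood above 3.4, 5.88 and 4.90 in the others. Without that library HOXA10-AS had -1.06 (adjusted p = 0.291) at 16 h and -0.83 (adjusted p = 0.198) at 96 h. At 16 h its call also ended without 0 h replicate 3 or 16 h replicate 3 or 4.

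In LB1-AID at 96 h 8 members were higher and 1 lower (background 1.05% and 2.12%, 3.17% in all). ELFN1-AS1, expressed in colorectal tumours, has more counts per kilobase (7.44) than ELFN1 (0.505), in whose introns it lies. It had 4.66, 3.98 and 4.42 CPM at 0 h, 8.69, 5.42, 5.42 and 4.56 at 16 h and 11.6, 10.3, 11.4 and 9.87 at 96 h. The 96 h libraries lay above all others, with a log2 fold change of 1.27 ± 0.25 (adjusted p = 0.000951), which passed under every alternative run. Relative to library totals, the 96 h libraries also lay above those at 0 h in LB2-AID and, narrowly, in LA/C-AID. The parental libraries at these times overlapped. ELFN1 had 0.58 ± 0.57 (adjusted p = 0.701). In the fit with the intronic covariate 4 members were higher and 1 lower, 2 of them among the 9, beside 2.05% of all genes called. Without 0 h replicate 2, 0 h replicate 3 or 96 h replicate 2 the line's count was 1, 2 and 2, and without 96 h replicate 1 or 3 it was 5.

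In LB2-AID at 96 h 6 members were higher and 2 lower (1.95% and 1.6%, 3.55% in all). CYP1B1-AS1 had 11.1, 4.51, 4.14 and 6.37 CPM at 0 h and 13.2, 13.0 and 14.6 at 96 h. These groups did not overlap, and the log2 fold change was 1.29 ± 0.22 (adjusted p = 0.000151). CYP1B1, an aryl hydrocarbon receptor target, rose by 0.71 ± 0.14 in the same comparison (adjusted p = 0.00143). In parental cells CYP1B1 rose by 1.09 ± 0.13 at 16 h while CYP1B1-AS1 was not called at 16 or 96 h. SH3PXD2A-AS1 rose from 0.554, 0.309, 0.184 and 0.764 CPM to 2.62, 2.69 and 1.65, by 2.65 ± 0.61 (adjusted p = 0.00631), with SH3PXD2A, a podosome scaffold gene that holds it in its introns, up by 1.38 ± 0.18 (adjusted p = 1.23e-06). This rise began from 1, 5, 2 and 3 counts at 0 h. There both genes were called below parental cells, with log2 differences of -2.03 for SH3PXD2A-AS1 and -1.39 for SH3PXD2A. TMEM51-AS1 was the member that rose at 96 h in all 3 tagged lines, by 0.89 ± 0.30 in LA/C-AID (adjusted p = 0.0356), 1.19 ± 0.35 in LB1-AID (adjusted p = 0.0426) and 1.25 ± 0.31 in LB2-AID (adjusted p = 0.0128). Its parental values were 2.07, 2.23, 3.23 and 4.59 CPM at 0 h and 4.41, 4.39, 3.92 and 3.03 at 96 h, which overlap, and the change was not called. Leaving out single libraries ended the TMEM51-AS1 call in 5 fits in LA/C-AID, 6 in LB1-AID and 2 in LB2-AID. In LB2-AID the intronic covariate gave 7 members higher and 2 lower, 7 of them among the 8, beside 4.52% of all genes called. The LB2-AID count of members was 13 without 0 h replicate 1 and 3 without 96 h replicate 2 or 3.

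The 96 h changes of the tagged lines differed from the parental change almost only upwards. In LA/C-AID 32 members had a more positive change and 2 a more negative one (background 3.1% and 4.3%, 7.4% in all), in LB1-AID 12 and 0 (0.726% and 0.317%, 1.04% in all), and in LB2-AID 6 and 0 (0.27% and 0.0977%, 0.368% in all). These 3 comparisons share the 8 parental libraries in which the members fell, so that each line's values are given side by side. SEMA5A-AS1 differed by 2.57 ± 0.51, 2.39 ± 0.59 and 2.44 ± 0.52 (adjusted p = 0.00223, 0.0332 and 0.0249), HMGA2-AS1 by 1.72 ± 0.31, 1.45 ± 0.33 and 1.31 ± 0.32 (adjusted p = 0.00103, 0.0202 and 0.0494), and SAMD4A-AS1 by 2.47 ± 0.47, 2.44 ± 0.51 and 1.89 ± 0.49 (adjusted p = 0.00163, 0.0123 and 0.0633). The partner SEMA5A was also called with a more positive change in LB1-AID (1.11) and LB2-AID (0.78), and HMGA2 in LA/C-AID (0.64). Beside the other calls of these members the partner was not called. Of 24 alternatives, the LB1-AID calls of SEMA5A-AS1, HMGA2-AS1 and SAMD4A-AS1 were lost in 12, 5 and 3, and the LB2-AID calls of SEMA5A-AS1 and HMGA2-AS1 in 7 and 17, mostly with a single library left out. The 2 with a more negative change in LA/C-AID were VPS9D1-AS1 (-1.10 ± 0.29) and YWHAH-AS1 (-1.29 ± 0.32). With the intronic measure as a covariate no member was called in these 3 comparisons, and of all genes 0.102%, 0.00931% and 0.14% were called. The LA/C-AID count was 21 without 96 h replicate 3 and 20 without parental 96 h replicate 2. The LB1-AID count was 23 without 96 h replicate 4, 7 without 96 h replicate 1, 6 and 5 without parental 0 h replicates 1 and 4, 3 without 0 h replicate 2 or 3 or parental 96 h replicate 2, and 1 without 96 h replicate 2. The LB2-AID count was 0 to 3 in 11 of 15 such fits, and 0 without 0 h replicate 2, 96 h replicate 1 or parental 96 h replicate 2.

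**Figure D5:**
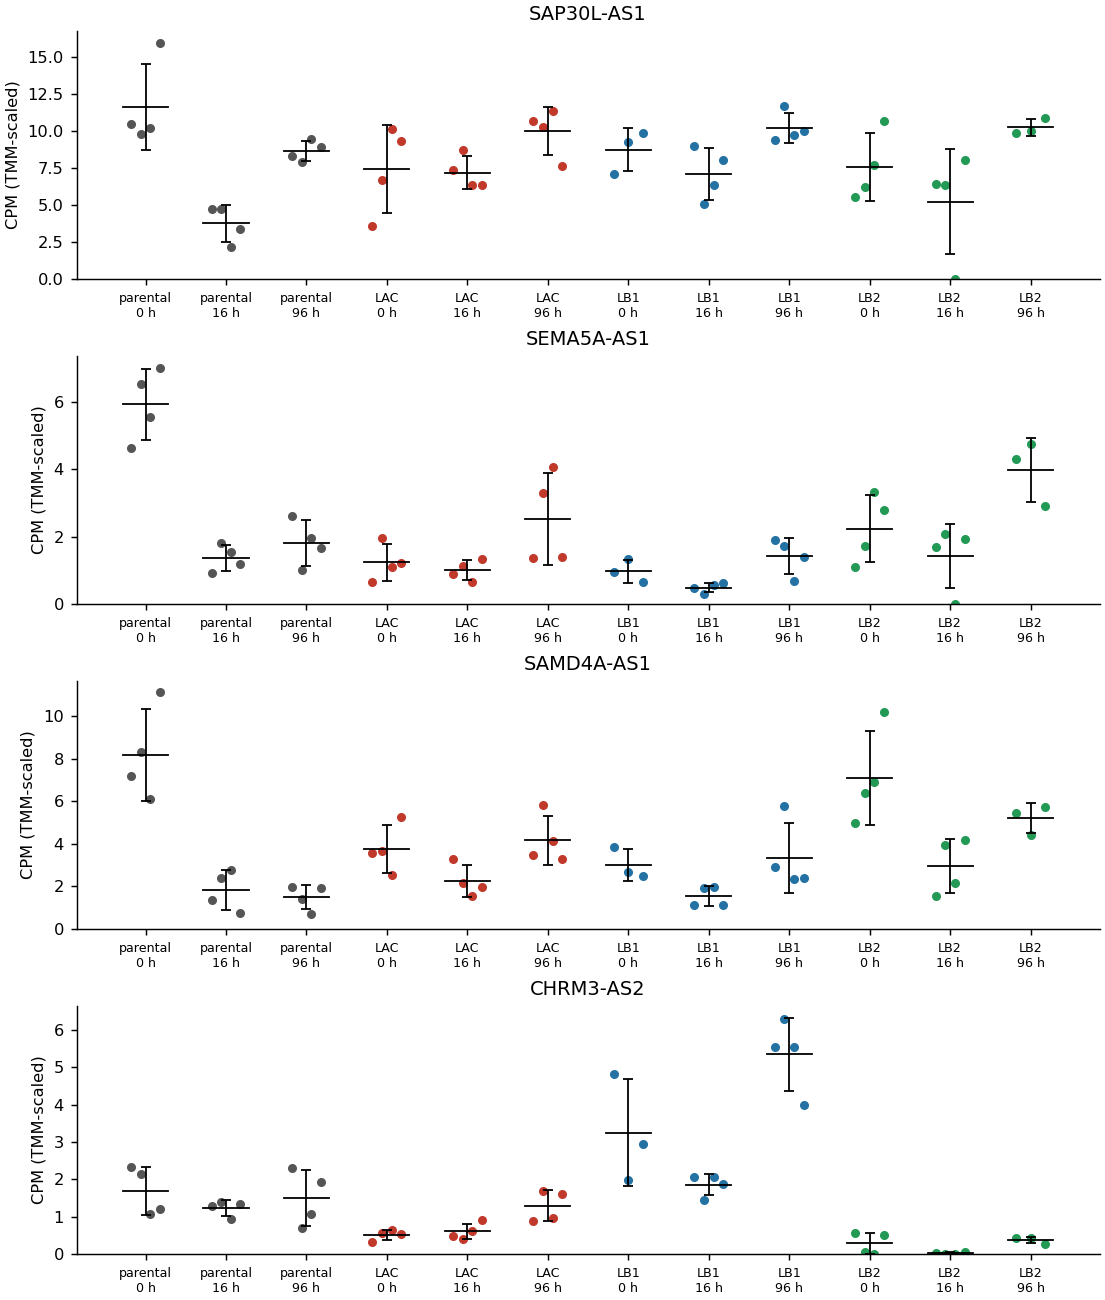
Level of SAP30L-AS1, SEMA5A-AS1, SAMD4A-AS1 and CHRM3-AS2 in each library (TMM-scaled CPM), by line and hours of auxin. Points are libraries, the bar is the mean and the whiskers are 1 SD; SEMA5A-AS1 lies between 4.63 and 7.01 CPM in parental cells at 0 h, above every library of the other 2 parental groups, and CHRM3-AS2 is under 0.6 CPM in all LB2-AID libraries.

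The lines also differed before auxin. Against parental cells at 0 h LA/C-AID had 7 members higher and 53 lower (background 8.71% and 7.08%, 15.8% in all), LB1-AID 1 and 5 (1.62% and 2.43%, 4.05% in all) and LB2-AID 5 and 21 (3.91% and 4.3%, 8.21% in all). The medians were -0.29, -0.13 and -0.14, against -0.06, -0.03 and -0.03 over all genes. With the intronic measure as a covariate LA/C-AID kept 3 members called, LB1-AID had 8 and LB2-AID 21, of which 20 were among its 26. Of all genes 2.87%, 5.35% and 9.86% were called in those fits. These comparisons share the parental libraries. The LA/C-AID count was 37 without parental 0 h replicate 4, and the LB1-AID count 2 without that library or without LB1-AID 0 h replicate 2.

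CHRM3-AS2, antisense to the muscarinic acetylcholine receptor gene CHRM3, was nearly silent in LB2-AID. It had 2.32, 2.15, 1.08 and 1.21 CPM in parental cells, 0.324, 0.555, 0.635 and 0.528 in LA/C-AID, 4.81, 1.99 and 2.95 in LB1-AID and 0.554, 0.0618, 0 and 0.510 in LB2-AID, all at 0 h. The LB2-AID libraries lay below all parental ones, by -3.65 ± 0.60 on the log2 scale (adjusted p = 2.92e-05), and CHRM3 by -3.85 ± 0.40 (adjusted p = 5.97e-10). SEMA5A-AS1 was lower in all 3 tagged lines at 0 h, by 2.08 ± 0.37, 2.77 ± 0.46 and 1.31 ± 0.37 (adjusted p = 8.31e-05, 3.52e-05 and 0.017), as was SEMA5A, by 1.24 ± 0.13, 2.73 ± 0.16 and 1.20 ± 0.14. PARM1-AS1 was lower in LB2-AID, by 2.34 ± 0.55 (adjusted p = 0.00378), with PARM1 lower by 2.59 ± 0.19. HMGA2-AS1 and HMGA2 were lower in LB1-AID, by 1.28 ± 0.25 (adjusted p = 0.000539) and 1.09 ± 0.15 (adjusted p = 8.59e-07). OIP5-AS1, which overlaps exons of the centromere factor gene OIP5, had 182, 153, 138 and 128 CPM in LB2-AID at 0 h against 236, 244, 215 and 220 in parental cells, a difference of -0.62 ± 0.12 (adjusted p = 0.000421). OIP5 had 0.53 ± 0.30 (adjusted p = 0.32). OIP5-AS1 was called in no other comparison of the 17, and after correction for GC content and length this difference was not called (adjusted p = 0.0876).

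KLRK1-AS1 was higher in LB2-AID at 0 h, with 6.10, 5.63, 8.00 and 7.90 CPM against 2.19, 2.23, 2.87 and 3.62 in parental cells, a difference of 1.39 ± 0.30 (adjusted p = 0.00163). SPATA3-AS1 was higher in LA/C-AID, with 8.09, 4.77, 9.53 and 6.86 CPM against 4.02, 2.23, 2.69 and 1.45, a difference of 1.4 ± 0.29 (adjusted p = 0.00057). Their partners KLRK1, an immune receptor gene, and SPATA3 did not pass the low-count filter.

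Across the 479 pairs the member's and the partner's log2 fold changes had a Pearson correlation of 0.12 in parental cells at 16 h, 0.28 at 96 h, 0.42 in LA/C-AID at 96 h, 0.32 in LB1-AID and 0.26 in LB2-AID at 96 h. These describe genes and not replicates, and both genes of a pair come from the same libraries and share reads of the same region. The share of pairs moving the same way was 48.4% in parental cells at 16 h and 63.5% in LA/C-AID at 96 h. For pairs with the member in introns the correlation at 96 h was 0.43 in LA/C-AID, 0.37 in LB1-AID and 0.54 in LB2-AID. For pairs with overlapping exons it was 0.41, 0.33 and 0.16, and for head-to-head pairs 0.31, -0.09 and 0.09. Differences between these classes were not tested. At 0 h against parental cells both genes were called in 11, 3 and 12 pairs in LA/C-AID, LB1-AID and LB2-AID, and each of these pairs moved the same way. Over the 17 comparisons opposite calls were found in parental cells at 16 h alone, in the 4 pairs named above.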

How the data were processed

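RNA from 46 wells of DLD-1 cells was sequenced as rRNA-depleted stranded total RNA, per the labels' protocols. The authors deposited 1 table of raw read counts per gene with exon positions, made with featureCounts 1.6.4 per the file headers. The submitters' processing notes name STAR 2.7.10a and GRCh38. The strand setting and the handling of shared reads are not given in the sources used here. A gene broken over 3 lines was left out, and symbols were found for 67.4% of genes. All 46 columns of counts were assigned to libraries through their names.

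Counts were fitted with edgeR 4.0.16 (quasi-likelihood, TMM scaling, default filterByExpr, 12 groups in 1 fit, two-sided tests, R 4.3.3), leaving 21484 genes, with Benjamini-Hochberg adjustment across all of these. CPM of named members per library are TMM-scaled, while mean levels, marker levels and summed levels are CPM of the library's total. Values after ± are standard errors of the fit. In simulated data for the parental 16 h comparison (19471 genes), 54 of 100 changes of 1 and 98 of 100 changes of 2 on the log2 scale were recovered. For the LB1-AID difference from the parental change at 96 h (19422 genes) these were 12 and 80 of 100. False calls numbered 6 and 9 in these 2 runs. The simulation gave every gene the same spread and drew changed genes from all genes above 1 CPM. These shares are therefore not recovery rates for members. Libraries within a group differed by more than counting noise (in 66 pairs, chi-square divided by its degrees of freedom was 3.97 or more).

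The members, the lists and the tests were chosen with earlier results of these data known. Members were named as the most abundant, those with the 3 largest rises and falls in each comparison, those called at both times or in 3 lines, and pairs with both genes called, with the partner of each. TMEM147-AS1 and HOXB-AS1 to HOXB-AS4 fall outside this rule in places, and values of a named member in comparisons that did not name it were chosen after they were seen. As alternatives, scaling used RLE or the library total, the filter was dropped, DESeq2 1.42.0 replaced edgeR, and further fits used the compared groups alone, a replicate block, leaving out the 6 libraries under 5000000 counts, GC and length trends removed, and each library left out in turn. The intronic measure as a covariate was added after seeing the data. The text prints only some of the 99 values that the naming rule picked.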

Additional observations from a re-analysis of the deposited data

Results flagged for a closer look

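For 17 members given by library and for the summed levels, 190 groups of 4 libraries were searched for 1 library standing apart from the other 3 by a gap of most of the range. It was found in 11 groups, close to the share of about 1 in 20 that this criterion gives by chance, so these libraries are listed as values only. AFAP1-AS1 had 609 CPM in parental 16 h replicate 1 (others 540 to 544), 378 in LA/C-AID 0 h replicate 1 (others 677 to 687) and 323 in LB2-AID 0 h replicate 2 (others 262 to 270). OIP5-AS1 had 256 CPM in LA/C-AID 16 h replicate 2 (others 270 to 272), and VPS9D1-AS1 had 59.9 CPM in LB2-AID 0 h replicate 1 (others 21.5 to 22.3). SAMD4A-AS1 had 5.76 CPM in LB1-AID 96 h replicate 2 (others 2.33 to 2.89), and OSBPL10-AS1 had 0.897 CPM in LB1-AID 16 h replicate 4 (others 0.158 to 0.280). HOXB-AS2 had 12.7 CPM in LA/C-AID 0 h replicate 4 (others 8.74 to 9.17), and SAP30L-AS1 had 15.9 CPM in parental 0 h replicate 4 (others 9.82 to 10.5). FRMD3-AS1 had 1.75 CPM in LB1-AID 96 h replicate 1 (others 1.24 to 1.32), and CYP1B1-AS1 had 10.4 CPM in parental 0 h replicate 3 (others 6.6 to 6.95).

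Differences between a tagged line's 96 h change and the parental one were tested as an interaction in edgeR. In LA/C-AID they were largest for SEMA5A-AS1 (2.57, adjusted p = 0.00223), IGF2BP2-AS1 (2.54, adjusted p = 0.00481) and SAMD4A-AS1 (2.47, adjusted p = 0.00163), and negative for YWHAH-AS1 (-1.29, adjusted p = 0.0106) and VPS9D1-AS1 (-1.10, adjusted p = 0.0169). In LB1-AID they were largest for IGF2BP2-AS1 (2.71, adjusted p = 0.0165), SAMD4A-AS1 (2.44, adjusted p = 0.0123) and SEMA5A-AS1 (2.39, adjusted p = 0.0332). In LB2-AID they were largest for SH3PXD2A-AS1 (3.39, adjusted p = 0.0436), SEMA5A-AS1 (2.44, adjusted p = 0.0249) and DIP2C-AS1 (2.00, adjusted p = 0.0436). All are on the log2 scale and share the parental libraries. Of the partners, SEMA5A alone was called beside its member, in LB1-AID (1.11) and LB2-AID (0.78). Of 24 alternatives, the LB2-AID calls of SH3PXD2A-AS1, SEMA5A-AS1 and DIP2C-AS1 were lost in 14, 7 and 15, and the LB1-AID calls of IGF2BP2-AS1, SAMD4A-AS1 and SEMA5A-AS1 in 5, 3 and 12, mostly with a single library left out.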

How the results depend on the processing

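The counts of members called depended on the fit. The share of all genes called in each fit follows in brackets, in the same order. With library size only the member counts were 52 for LA/C-AID at 96 h, 93 at 0 h, 2 for LB2-AID at 16 h, and, for differences from the parental change, 1 for LA/C-AID at 16 h, 24 for LB1-AID and 11 for LB2-AID at 96 h (18.1%, 17.5%, 1.14%, 0.247%, 1.7% and 0.787%). With RLE scaling they were 3 for LB2-AID at 16 h and, for differences, 1 for LA/C-AID at 16 h and 19 for LB1-AID at 96 h (1.3%, 0.209% and 1.42%). Without the low-count filter they were 38 for parental cells at 16 h, 5 for LB1-AID at 96 h, 36 for LA/C-AID at 0 h, and, for differences, 5 for LA/C-AID at 16 h and 12 for LB2-AID at 96 h (3.21%, 1.09%, 5.91%, 0.258% and 0.361%). DESeq2 gave 6 for LA/C-AID at 16 h, 9 and 14 for LB1-AID at 16 and 96 h, 9 and 13 for LB2-AID, and, for differences, 7 for LA/C-AID at 16 h, 28 for LB1-AID and 12 for LB2-AID at 96 h (3.43%, 2.35%, 3.86%, 2.42%, 5.1%, 0.628%, 2.19% and 0.94%). The compared groups alone gave 98 and 57 for parental cells at 16 and 96 h, 0 and 9 for LA/C-AID, 22 for LB1-AID at 96 h, 0 and 1 for LB2-AID at 16 and 96 h, 28 for LA/C-AID and 7 for LB2-AID at 0 h, and, for differences, 1 for LB1-AID at 16 h, 33 for LB1-AID and 2 for LB2-AID at 96 h (22.5%, 15.6%, 0.064%, 6.22%, 8.25%, 0.0243%, 0.32%, 9.06%, 3.18%, 0.206%, 4.14% and 0.107%). Without libraries under 5000000 counts they were 1 for LA/C-AID and 14 for LB1-AID at 16 h, and 1 for the LA/C-AID difference at 16 h (0.852%, 4.63% and 0.299%). With GC and length trends removed they were 5, 12 and 12 for LA/C-AID, LB1-AID and LB2-AID at 16 h, 17 and 15 for LB1-AID and LB2-AID at 96 h, 12 for LB1-AID at 0 h, and, for differences, 1 for LA/C-AID at 16 h, 26 for LB1-AID and 14 for LB2-AID at 96 h (1.72%, 5.41%, 3.93%, 6.72%, 6.77%, 6.46%, 0.386%, 3.77% and 1.46%). With the intronic measure as a covariate they were 0 and 2 for parental cells, 0 and 5 for LB1-AID, 0 for LB2-AID at 16 h, 3 for LA/C-AID at 0 h, and 0 for all 3 differences at 96 h (0.824%, 2.5%, 0.209%, 2.05%, 1.12%, 2.87%, and 0.102%, 0.00931% and 0.14%). The share called higher moved by over 10 points with scaling: with library size only the splits (higher and lower) were 40 and 12 for LA/C-AID, 12 and 0 for LB1-AID and 8 and 0 for LB2-AID at 96 h, 0 and 2 for LB2-AID at 16 h and 0 and 5 for LB1-AID at 0 h.

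Same-numbered libraries of different groups deviated together only weakly (median correlation 0.0805, from -0.711 to 0.845 over 243 pairs). Pairs with unlike numbers had a median of -0.00762. The reported fits use no pairing, and pairing within single lines was not examined. With the replicate number as a block, 7 members were called for LB1-AID at 16 h beside 2.2% of all genes, and the other counts were within 1.5 times of those reported.

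Leaving out 1 library at a time, counts ran from 32 to 61 and 28 to 40 for parental cells at 16 and 96 h, 0 to 21 and 17 to 49 for LA/C-AID, 0 to 8 and 1 to 7 for LB1-AID, and 0 to 13 and 3 to 13 for LB2-AID. For the differences they ran from 0 to 2, 0 to 0 and 0 to 0 at 16 h in LA/C-AID, LB1-AID and LB2-AID and 20 to 38, 1 to 23 and 0 to 8 at 96 h, and at 0 h 37 to 50, 2 to 6 and 18 to 29. Of 99 named member values, 9 were called under every alternative: AFAP1-AS1 in LB2-AID at 96 h, FAM131B-AS2 and PARM1-AS1 in LA/C-AID at 96 h, ELFN1-AS1 in LB1-AID at 96 h, SEMA5A-AS1 and HMGA2-AS1 in LB1-AID at 0 h, and PARM1-AS1, CHRM3-AS2 and KLRK1-AS1 in LB2-AID at 0 h. Of 1786 values under alternatives 1 reversed: IGF2BP2-AS1 in LA/C-AID at 0 h was 0.11 with the intronic measure as a covariate, and the cause was not tested. Depth limits members near 1 CPM, since in the least deep library 213 of 501 members had 0 counts.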
